A study of Mus musculus with 241 samples.

Results

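The mitosis genes described here are 42 genes whose products run cell division: cyclins and kinases that start mitosis, motors and scaffolds that build the spindle, kinetochore proteins that tie chromosomes to it, and the enzymes that release anaphase and cut the daughter cells apart. They were taken as a fixed list of symbols and matched by symbol in each table. The matching uses no measured value, but this list, like the other gene lists below, was chosen with earlier results of these data known. All 42 were found among 24506 genes in the bulk RNA-seq table, 27998 genes in the 10x Chromium tables and 43346 genes in the Fluidigm C1 single-cell table.

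The samples are the earliest T-cell precursors of the C57BL/6 mouse thymus, untreated, which carry Kit and CD44 and lack markers of other blood lineages. These cells start as early T-cell precursors (ETP), which lack CD25 (the product of Il2ra), turn on CD25 as DN2a cells, and then turn on Bcl11b, the transcription factor gene that marks T-lineage commitment. The bulk libraries came from mice with a yellow fluorescent reporter in both Bcl11b alleles (Bcl11byfp/yfp), an allele that all 5 sorted populations share. The populations were Flt3+ ETP (CD25- Flt3+, 2 libraries), Flt3- ETP (CD25- Flt3-, 2 libraries), total ETP (CD25-, not divided by Flt3, 2 libraries), Bcl11b- DN2a (CD25+, reporter negative, 3 libraries) and Bcl11b+ DN2a (CD25+, reporter positive, 3 libraries). The single cells were wild type and were sorted on Kit and CD44 without CD25, Flt3 or Bcl11b, in 2 droplet libraries of the 10x system and as cells captured 1 by 1 on C1 chips. The labels give neither the ages nor the number of animals behind a library. The bulk p-values below therefore reflect only how far these libraries scatter, and that scatter may be technical in origin. The 10x p-values come from stage sums within the same 2 libraries. They reflect the scatter of those sums and not the spread of libraries.

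The gate genes followed the sort: Flt3 stood at 19.3 to 24.9 FPKM in Flt3- ETP, against 61.9 to 78.5 FPKM in Flt3+ ETP, Il2ra at 183.6 to 301 FPKM in the DN2a libraries and at most 18.4 in ETP, and Bcl11b at 16.1 to 44.3 FPKM in Bcl11b+ DN2a, against 0.596 to 6.11 FPKM in Bcl11b- DN2a. Libraries in the bulk table were made with either of 2 kits, NEBNext or SMART-Seq, and replicate 2 of both Flt3 populations and replicate 3 of both DN2a populations are the SMART-Seq libraries. The ETP libraries of replicate 1 stand apart from the other ETP libraries in later T-cell genes such as Cd3g, whose summed level was 84.4 FPKM in the Flt3- library and 109.1 FPKM in the Flt3+ library, against 18.3 and 32.9 FPKM in the SMART-Seq libraries of the same populations. The same replicate 1 libraries held Bcl11b at 4.54 and 5.77 FPKM, where the other ETP libraries had at most 0.167 FPKM. Each bulk result is therefore also given within a run of library numbers, which holds the kit constant. For the divided ETP this separates the pair with more of these transcripts from the pair with less.

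Mitotic transcripts are made in waves. Their genes are held silent by the DREAM complex in resting and early-cycle cells, are switched on by B-Myb and FoxM1 as a cell approaches division, and many of their products are destroyed at the end of mitosis. In the thymus, ETP and DN2 cells divide repeatedly under Kit and Notch signals before they rearrange their antigen receptor genes, and the level of these transcripts in a population depends on how many of its cells are close to division as well as how much each such cell makes. In bulk RNA, fewer mitotic cells and less RNA per cell cannot be told apart.

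The promoters of these genes carry a recognizable pair of motifs, shown here because the members' differences shared 1 sign in several of the comparisons. The first is the hexamer TTTGAA, the core of the cell cycle genes homology region (CHR) to which the DREAM complex binds; the second is the pentamer CCAAT, the box bound by NF-Y. Both were searched on either strand, overlapping matches included, in the RefSeq windows of 250 bases before to 50 bases after the start site (GRCm38.p6), which were found for 37 of the 42 members and for 27025 genes in all. TTTGAA was found in 27 of the 37 members (73%) and in 20.2% of all genes, and CCAAT in 28 members (75.7%) and 41.1% of all genes. Both motifs together were found in 24 members (64.9%) and in 9.0% of all genes, and neither in 6 members (16.2%) and in 47.7%. A TTTGAA lay within 50 bases of the start site in 25 members (67.6%), against 5.7% of all genes, and in 29 cases a TTTGAA had a CCAAT upstream of it, at a median spacing of 33 bases. Below are the members with the highest mean level that hold a motif, each written 5′ to 3′ on its own strand with every match to either motif, on either strand, in capitals: Ube2c (chr2:164769679-164769978, plus strand), Ccnb2 (chr9:70421505-70421804, minus), Top2a (chr11:99024140-99024439, minus), Ccnb1 (chr13:100786437-100786736, minus, CCAAT only) and Cdca8 (chr4:124936868-124937167, minus, where both motifs overlap).
Ube2c: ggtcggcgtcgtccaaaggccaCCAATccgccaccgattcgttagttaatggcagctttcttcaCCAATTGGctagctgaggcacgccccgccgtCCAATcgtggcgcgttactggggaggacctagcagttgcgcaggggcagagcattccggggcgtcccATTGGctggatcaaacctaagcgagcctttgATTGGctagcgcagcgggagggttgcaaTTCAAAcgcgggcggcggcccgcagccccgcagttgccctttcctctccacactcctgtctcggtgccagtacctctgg
Ccnb2: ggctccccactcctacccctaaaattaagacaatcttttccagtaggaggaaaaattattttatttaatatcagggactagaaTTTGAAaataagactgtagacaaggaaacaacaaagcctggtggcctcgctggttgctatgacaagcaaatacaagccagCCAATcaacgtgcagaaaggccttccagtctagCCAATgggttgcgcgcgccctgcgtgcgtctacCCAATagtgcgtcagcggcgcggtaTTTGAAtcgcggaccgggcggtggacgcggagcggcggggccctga
Top2a: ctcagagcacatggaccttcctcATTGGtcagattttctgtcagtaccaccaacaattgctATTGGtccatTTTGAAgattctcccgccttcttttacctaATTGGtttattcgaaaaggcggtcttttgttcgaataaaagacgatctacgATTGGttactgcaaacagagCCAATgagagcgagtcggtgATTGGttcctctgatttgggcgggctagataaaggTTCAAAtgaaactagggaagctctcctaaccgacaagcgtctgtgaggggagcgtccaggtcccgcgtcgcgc
Ccnb1: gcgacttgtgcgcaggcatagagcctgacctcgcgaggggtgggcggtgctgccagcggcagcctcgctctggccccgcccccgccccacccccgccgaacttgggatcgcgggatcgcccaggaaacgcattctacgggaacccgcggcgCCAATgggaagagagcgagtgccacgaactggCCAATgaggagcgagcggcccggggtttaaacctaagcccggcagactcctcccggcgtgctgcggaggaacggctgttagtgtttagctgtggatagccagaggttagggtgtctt
Cdca8: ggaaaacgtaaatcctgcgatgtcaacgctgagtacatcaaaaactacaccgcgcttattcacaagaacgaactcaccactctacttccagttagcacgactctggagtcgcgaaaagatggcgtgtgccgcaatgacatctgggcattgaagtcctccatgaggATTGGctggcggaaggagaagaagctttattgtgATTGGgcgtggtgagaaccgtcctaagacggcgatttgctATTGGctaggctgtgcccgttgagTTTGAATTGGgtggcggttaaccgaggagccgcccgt
Birc5 (chr11:117848987-117849286, plus) and Tacc3 (chr5:33657878-33658177, plus) are shown for contrast as the most highly expressed members with neither motif in the window.
Birc5: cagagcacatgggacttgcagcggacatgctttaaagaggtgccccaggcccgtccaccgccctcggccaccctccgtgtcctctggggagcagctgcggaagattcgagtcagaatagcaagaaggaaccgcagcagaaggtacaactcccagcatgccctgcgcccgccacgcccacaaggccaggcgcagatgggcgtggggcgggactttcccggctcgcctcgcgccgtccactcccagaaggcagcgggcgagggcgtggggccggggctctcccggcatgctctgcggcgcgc
Tacc3: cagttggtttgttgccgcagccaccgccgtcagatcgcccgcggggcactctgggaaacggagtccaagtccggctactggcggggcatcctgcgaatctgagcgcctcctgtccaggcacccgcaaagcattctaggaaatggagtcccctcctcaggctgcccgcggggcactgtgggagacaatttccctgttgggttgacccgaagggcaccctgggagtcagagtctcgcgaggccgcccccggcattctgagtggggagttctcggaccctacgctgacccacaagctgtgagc
In Ube2c and Top2a the last motif before the start site is the hexamer, on either strand, with CCAAT boxes before it, while in Ccnb2 it is a CCAAT box, with 1 hexamer farther upstream and 1 just after the start site. A match of letters describes the sequence only, and a window without one says nothing of the factor.

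**Figure D1:**
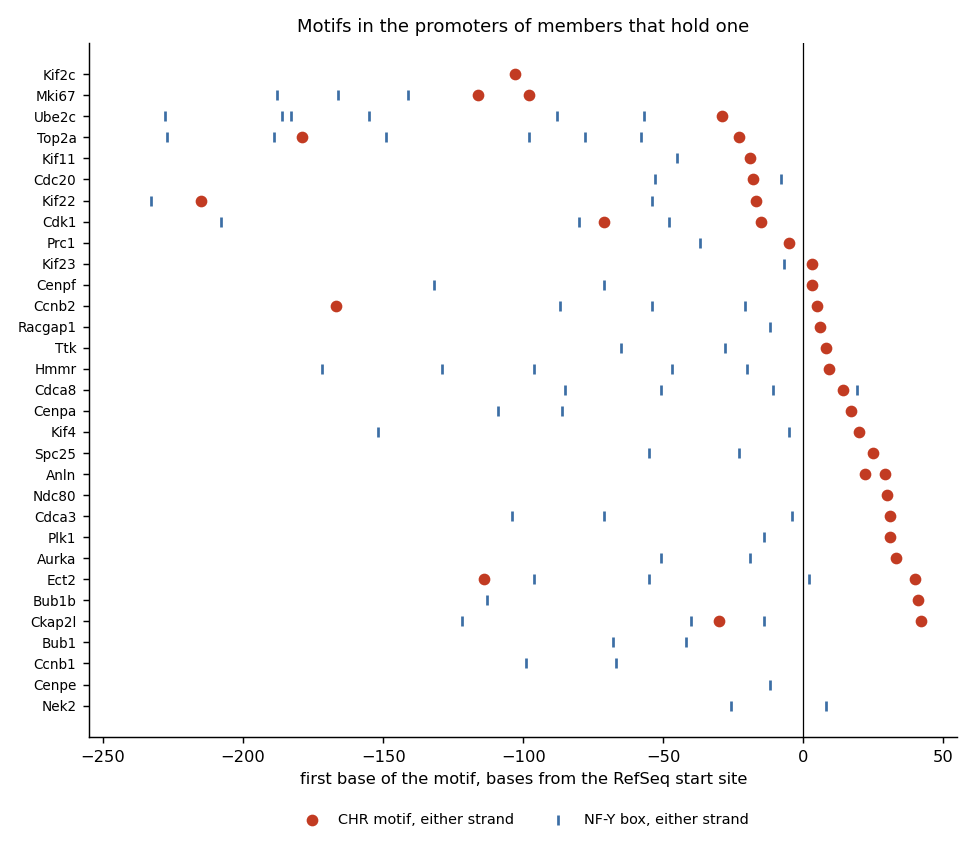
Positions of the CHR motif and the NF-Y box in the members' promoter windows, in bases from the start site, with 1 line for each member that holds a motif. Of the 37 members with a window, the 6 with neither motif have no line. The CHR motif lies within 50 bases of the start site in 25 of the 37 members.

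The members' levels spanned more than an order of magnitude. Averaged over the 12 bulk libraries, the deposited FPKM values (fragments per kilobase of exon, scaled to library size) were highest for Ube2c at 95.8, Birc5 at 94, Ccnb2 at 80.2, Top2a at 75.7 and Ccnb1 at 68.4 FPKM, and lowest for Cenpf at 6.27 FPKM. The kit moved these levels: 33 members were higher and 9 lower with SMART-Seq on average, and across members this kit difference was lower where the gene model was longer (Spearman rho -0.664 over 42 genes that share the same libraries). Mki67 and Top2a, with long transcripts, had a SMART-Seq minus NEBNext difference of -1.92 and -1.20 on the log2(FPKM + 1) scale, while Spc25 and Ccnb1 had 2.59 and 2.4. Values were therefore compared on that log2 scale in a fit with population and kit as terms (limma, 12112 genes tested, all 42 members among them, with a gene called where its p, adjusted by Benjamini-Hochberg, was under 0.05).

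The leading member of each role shows the pattern across the 5 populations; in each list of values the SMART-Seq library of a population comes last, and total ETP has none. Ccnb2, a B-type cyclin that activates Cdk1 at mitotic entry, stood at 50.0 and 176.8 FPKM in Flt3+ ETP, 43.9 and 135.3 in Flt3- ETP, 38.1 and 35.5 in total ETP, 35.5, 36.8 and 138.3 in Bcl11b- DN2a, and 56.3, 50.7 and 164.6 FPKM in Bcl11b+ DN2a. Aurkb, the kinase of the chromosomal passenger complex, stood at 34.7 and 78.1 FPKM in Flt3+ ETP, 16.2 and 48.1 in Flt3- ETP, 24 and 21.5 in total ETP, 33.8, 29.2 and 61.6 in Bcl11b- DN2a, and 50.4, 38.7 and 77 FPKM in Bcl11b+ DN2a. For both genes the values of Flt3+ ETP and Bcl11b+ DN2a were above those of the other populations within each kit. Ube2c, the ubiquitin-conjugating enzyme that the anaphase-promoting complex uses to destroy cyclin B, stood at 77.8 and 222.3 FPKM in Flt3+ ETP, 53.6 and 149.1 in Flt3- ETP, 34 and 32.8 in total ETP, 40.5, 38.5 and 157.2 in Bcl11b- DN2a, and 76, 61.8 and 206.3 FPKM in Bcl11b+ DN2a. Birc5 (survivin), which brings Aurkb to the centromere, stood at 50.9 and 192.1 FPKM in Flt3+ ETP, 44 and 153.6 in Flt3- ETP, 34.5 and 33.4 in total ETP, 34.9, 36.3 and 172.2 in Bcl11b- DN2a, and 67.2, 60.5 and 249 FPKM in Bcl11b+ DN2a. Ube2c was highest in Flt3+ ETP with either kit, and Birc5 was highest in Bcl11b+ DN2a with either kit.

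Among the structural proteins, Cenpa, the histone H3 variant of centromeres, stood at 38.7 and 134.6 FPKM in Flt3+ ETP, 37.9 and 111.5 in Flt3- ETP, 35.8 and 28.7 in total ETP, 28.4, 32.7 and 95.3 in Bcl11b- DN2a, and 38.6, 38.3 and 105.03 FPKM in Bcl11b+ DN2a. Tacc3, which crosslinks kinetochore microtubules, stood at 44.7 and 103.8 FPKM in Flt3+ ETP, 22.5 and 65.6 in Flt3- ETP, 32.4 and 28.5 in total ETP, 37.7, 38 and 84.3 in Bcl11b- DN2a, and 51.7, 52.2 and 100.7 FPKM in Bcl11b+ DN2a. Tacc3 was lowest in Flt3- ETP with either kit. Kif22, a chromosome-arm kinesin that pushes chromosomes toward the spindle equator, stood at 34.8 and 74 FPKM in Flt3+ ETP, 19.2 and 46.6 in Flt3- ETP, 20.2 and 17.1 in total ETP, 22.3, 22.3 and 51.5 in Bcl11b- DN2a, and 34.4, 33.3 and 68.7 FPKM in Bcl11b+ DN2a. Prc1, which bundles the microtubules of the central spindle, stood at 21.6 and 57.2 FPKM in Flt3+ ETP, 8.35 and 30.3 in Flt3- ETP, 18.2 and 19 in total ETP, 14.9, 17.8 and 37.4 in Bcl11b- DN2a, and 24.9, 32 and 54.5 FPKM in Bcl11b+ DN2a. Top2a, the topoisomerase that untangles sister chromatids, stood at 94.6 and 43.6 FPKM in Flt3+ ETP, 39.6 and 23.8 in Flt3- ETP, 100.2 and 110.9 in total ETP, 72.2, 94.9 and 30.3 in Bcl11b- DN2a, and 105.2, 151.2 and 41.7 FPKM in Bcl11b+ DN2a. Flt3- ETP was lowest within either kit for Prc1 and Top2a, and for Kif22 within SMART-Seq, while with NEBNext 1 total ETP library had less Kif22.

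The order of the populations was also counted over all members. In the NEBNext run with library numbers 16673 to 16676, Bcl11b+ DN2a held the highest value for 31 of the 42 members and Flt3+ ETP for 11, while Flt3- ETP held the lowest for 35 and Bcl11b- DN2a for 7. In the SMART-Seq run (20588 to 20591), Flt3+ ETP was highest for 27 members and Bcl11b+ DN2a for 15, and Flt3- ETP was lowest for 37 and Bcl11b- DN2a for 5. In the run that holds total ETP (20719 to 20722, NEBNext), Bcl11b+ DN2a was highest for 41 members, and Bcl11b- DN2a was higher than the mean of the total ETP libraries for 20 members and lower for 22, with a median difference of -0.02. In both runs with divided ETP, the mitosis genes were thus high in Flt3+ ETP and Bcl11b+ DN2a and low between them, and which of these ends was higher differed between the runs.

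**Figure D2:**
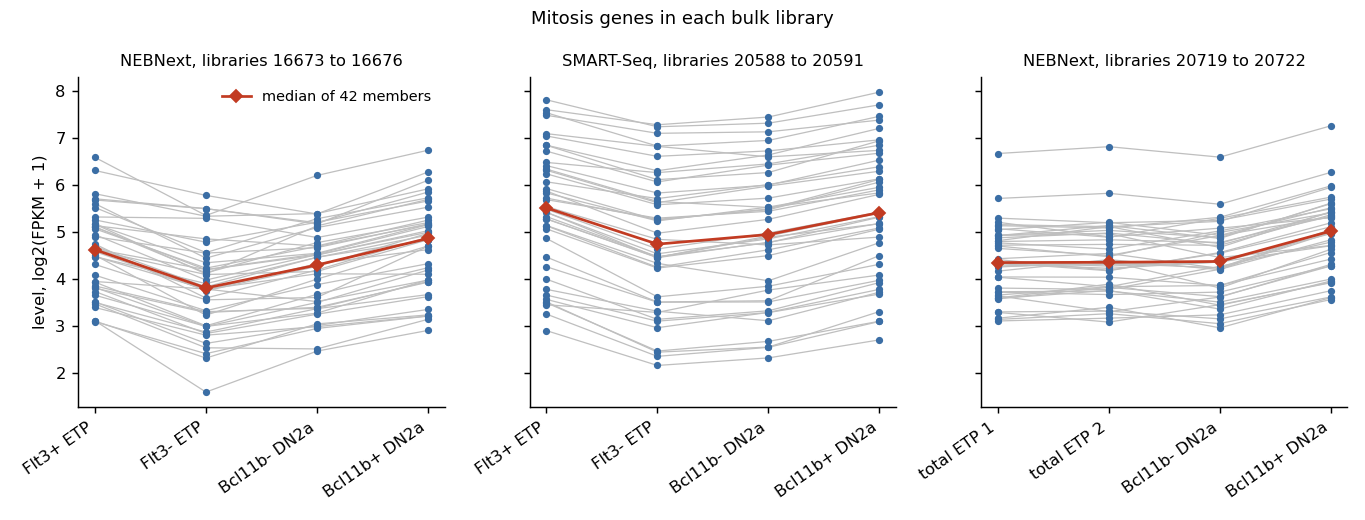
Level of each of the 42 members (grey lines, log2(FPKM + 1)) in the populations of each run of library numbers, with the median over members as red diamonds. In the NEBNext and SMART-Seq runs that hold all 4 divided populations, Flt3- ETP held the lowest value for 35 and 37 members.

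Within ETP, the mitosis genes were lower in the Flt3- cells than in the Flt3+ cells. All 42 differences were negative, with a median of -0.74 on the log2(FPKM + 1) scale against -0.14 over all genes tested, and 10 members fell while none rose. Of all genes tested, 0.685% were called in either direction and 0.264% were called lower. The called members were the kinesins Kif4, Kif20a, Kif2c and Kif22, the spindle proteins Tpx2 and Tacc3, the central spindle proteins Prc1 and Racgap1, the centrosome kinase Nek2 and the checkpoint protein Bub1b, so that kinesins gave 4 calls of 6 measured, and spindle assembly and the central spindle 2 each of 6 and 4. Members of the cyclin, passenger and kinetochore groups had medians of -0.46, -0.36 and -0.60 and none of them was called. In 17 members the 2 Flt3- libraries lay below both Flt3+ libraries, as did 11.6% of all genes.

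Prc1 had 8.35 and 30.3 FPKM in Flt3- ETP, against 21.6 and 57.2 FPKM in Flt3+ ETP, a difference of -1.09 (SE 0.20, limma adjusted p = 0.0402). The groups overlap only across kits, since each Flt3- library lies below the Flt3+ library of its own kit. Nek2, which splits the centrosomes before mitosis, had 6.13 and 4.42 FPKM in Flt3- ETP, against 12.2 and 10.4 FPKM in Flt3+ ETP, a difference of -0.98 (SE 0.19, limma adjusted p = 0.0427). Its groups did not overlap. Cenpf, a kinetochore protein of late-cycle cells, had 2.01 and 3.46 FPKM in Flt3- ETP, against 7.60 and 6.45 FPKM in Flt3+ ETP, the widest difference of the set at -1.13 (SE 0.30), but was not called (limma adjusted p = 0.138). Top2a had 39.6 and 23.8 FPKM in Flt3- ETP, against 94.6 and 43.6 FPKM in Flt3+ ETP, a difference of -1.04 (SE 0.23, limma adjusted p = 0.0837). Both genes had groups that did not overlap, but neither passed the test. At the other end, Birc5 had 44 and 153.6 FPKM in Flt3- ETP, against 50.9 and 192.1 FPKM in Flt3+ ETP, a difference of -0.26 (SE 0.15, limma adjusted p = 0.359). Cenpa had 37.9 and 111.5 FPKM in Flt3- ETP, against 38.7 and 134.6 FPKM in Flt3+ ETP, a difference of -0.15 (SE 0.15, limma adjusted p = 0.617). Cenpa was nearly level between the populations within the NEBNext pair.

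The difference was present both in the pair with more of the later T-cell transcripts (NEBNext) and in the pair with less (SMART-Seq). The part of these transcripts was not tested. All 42 members were lower in Flt3- than in Flt3+ ETP within the SMART-Seq pair, with a median difference of -0.69, and within the NEBNext pair, with a median of -0.77. Of 43 other mitosis genes tested, 4 fell (Troap, Cdca2, Cdca5 and Incenp, at -1.02, -0.87, -0.84 and -0.80) and the median was -0.61. The 24 S-phase genes, which serve DNA replication, had a median of -0.41, with none called by limma and 14 at an unadjusted p under 0.05. Markers of myeloid cells moved the other way in the same libraries: 9 of 12 were called higher, their summed level was 961 and 1809 FPKM in Flt3- ETP, against 257 and 351 FPKM in Flt3+ ETP, where S100a8 and S100a9 were at 0 in the SMART-Seq library. Erythroid and mast cell markers moved with them, with 3 of 6 tested called higher, a median difference of 1.75 and, in the SMART-Seq pair, a sum of 358.3 FPKM in Flt3- ETP, against 71.9 FPKM in Flt3+ ETP. The part of these cells in the lower mitosis transcripts was not tested. The number of members called rests on single libraries: it was 0 without either Flt3+ library or without the NEBNext Flt3- library, 20 without the SMART-Seq Flt3- library, and 0 without the kit term or with NEBNext libraries only. With the run of library numbers as a term in place of the kit 34 members were called lower, where 3.06% of all genes were, and an edgeR test on the reads recovered from the FPKM values called 1, Kif20a. The sign was steadier: all 42 members were negative under each of the 13 alternatives, quantile normalization included, which brought the median of all genes to -0.03 and that of the members to -0.57. The alternatives reuse the same libraries, and all 42 members were lower within both pairs, so the sign had little room to change. The members also share these libraries and are not separate evidence.

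In Bcl11b- DN2a against Flt3- ETP the mitosis genes gave 35 positive and 7 negative differences, with a median of 0.38 against 0.12 over all genes. A single member rose, Kif20a, a kinesin of the central spindle, which had 19, 19.5 and 28.5 FPKM in Bcl11b- DN2a, against 12.5 and 20.9 FPKM in Flt3- ETP (difference 0.52, SE 0.13, limma adjusted p = 0.0489). The groups overlap across kits. Of all genes, 3.97% were called and 1.62% were called higher, so 1 of 42 is near the background in this fit. With the run of library numbers as a term in place of the kit 5 members were called higher, where 3.74% of all genes were. Within the NEBNext pair 35 members were higher in Bcl11b- DN2a and 7 lower, with a median of 0.42, and within the SMART-Seq pair 37 were higher and 5 lower, with a median of 0.19. Groups did not overlap for 4 members that were higher, against 6.91% of all genes. The largest differences were not called. Top2a had 72.2, 94.9 and 30.3 FPKM in Bcl11b- DN2a, against 39.6 and 23.8 FPKM in Flt3- ETP (0.72, SE 0.22, limma adjusted p = 0.0863). Cenpf had 4.50, 6.76 and 3.98 FPKM in Bcl11b- DN2a, against 2.01 and 3.46 FPKM in Flt3- ETP (0.67, SE 0.28, limma adjusted p = 0.166). Within each kit the DN2a values of both genes were the higher ones, and the Cenpf groups did not overlap. Aurkb had 33.8, 29.2 and 61.6 FPKM in Bcl11b- DN2a, against 16.2 and 48.1 FPKM in Flt3- ETP (0.65, SE 0.18, limma adjusted p = 0.0673). Mki67, whose product coats mitotic chromosomes and is a common marker of cycling cells, had 33, 46.9 and 8.74 FPKM in Bcl11b- DN2a, against 20.7 and 6.77 FPKM in Flt3- ETP (0.63, SE 0.23, limma adjusted p = 0.137). Both genes overlap between the groups only across kits. Ttk (Mps1), the kinase that starts checkpoint signalling, had 4.68, 7.85 and 7.61 FPKM in Bcl11b- DN2a, against 4.78 and 8.91 FPKM in Flt3- ETP (0.07, SE 0.21), and Cdca3, which is linked to destruction of the mitotic entry inhibitor Wee1, had 24.9, 22.5 and 63.1 FPKM in Bcl11b- DN2a, against 27.8 and 51.1 FPKM in Flt3- ETP (-0.01, SE 0.15).

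The S-phase genes gave 5 of 24 higher in Bcl11b- DN2a than in Flt3- ETP, with a median of 0.53. Among them were Cdc6, which loads the replicative helicase (0.75), Rrm2, a subunit of ribonucleotide reductase (0.72), Uhrf1, which helps to copy DNA methylation (0.77), and the helicase subunit Mcm7 (0.67). Cdc25b, a phosphatase that activates Cdk1, was the only other mitosis gene called among 43 tested (0.92). The difference between the lists was not tested. Myeloid markers were lower here, with 11 of 12 called and a sum of 169.8 to 242.5 FPKM in Bcl11b- DN2a, against 961 and 1809 FPKM in Flt3- ETP, and their part was not tested. Kif20a was not called without the NEBNext Flt3- library or without any 1 of the Bcl11b- DN2a libraries, and 11 members were called without the SMART-Seq Flt3- library. The edgeR test on recovered reads called Kif20a and Tacc3.

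Set against Flt3+ ETP, Bcl11b- DN2a had lower levels of 41 of the 42 members, with a median of -0.39 against -0.01 over all genes. Of these, 4 fell, namely Ube2c, Cdc20, Knstrn (a protein of kinetochores and the spindle) and Kif22. Of all genes, 6.11% were called and 4.27% were called lower, while 4 of 42 members were; groups did not overlap for 9 members that were lower, against 7.18% of all genes. Ube2c had 40.5, 38.5 and 157.2 FPKM in Bcl11b- DN2a, against 77.8 and 222.3 FPKM in Flt3+ ETP (-0.78, SE 0.15, limma adjusted p = 0.00817). Cdc20, the activator that turns the anaphase-promoting complex on its targets, had 40.8, 30.6 and 44.7 FPKM in Bcl11b- DN2a, against 55 and 79.4 FPKM in Flt3+ ETP (-0.72, SE 0.18, limma adjusted p = 0.0359). Cdc20 did not overlap between the groups, and Ube2c was separated within each kit. Ect2, the exchange factor that activates RhoA for the cleavage furrow, had 8.63, 13 and 14.5 FPKM in Bcl11b- DN2a, against 13.1 and 34 FPKM in Flt3+ ETP (-0.66, SE 0.27, limma adjusted p = 0.24). Ttk had 4.68, 7.85 and 7.61 FPKM in Bcl11b- DN2a, against 10.0 and 12.7 FPKM in Flt3+ ETP (-0.63, SE 0.21, limma adjusted p = 0.132). Neither was called, although all 3 Ttk values of the DN2a cells lay below both ETP values. The smallest differences were those of Cenpe, a kinetochore motor, with 7.22, 9.83 and 8.71 FPKM in Bcl11b- DN2a, against 7.57 and 11.6 FPKM in Flt3+ ETP (-0.07, SE 0.24), and of the checkpoint kinase Bub1, with 6.89, 9.23 and 12.5 FPKM in Bcl11b- DN2a, against 9.47 and 9.90 FPKM in Flt3+ ETP (0.02, SE 0.22).

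All 42 members were lower in Bcl11b- DN2a than in Flt3+ ETP within the NEBNext pair (median -0.41) and 41 within the SMART-Seq pair (median -0.51). Other mitosis genes gave 4 lower of 43 (Kif18b, Psrc1, Fam64a and Gtse1), with a median of -0.22. S-phase genes had a median of 0.12, with 18 of 24 positive, none called by limma and 1 at an unadjusted p under 0.05. Of 12 myeloid markers 4 were called lower and 1 higher, with a sum of 169.8 to 242.5 FPKM in Bcl11b- DN2a, against 257 and 351 FPKM in Flt3+ ETP, and 3 of 6 erythroid and mast cell markers were called higher; their part was not tested. The number of members called was 1 without the NEBNext Flt3+ library, the SMART-Seq Flt3+ library or the SMART-Seq Bcl11b- DN2a library, 2 without replicate 1 of Bcl11b- DN2a, and 0 without the kit term or with NEBNext libraries only. With the run of library numbers as a term it was 20, where 6.24% of all genes were called lower. The edgeR test on recovered reads called Ube2c and Kif22 and did not call Cdc20 or Knstrn. This comparison shares its Bcl11b- DN2a libraries with the preceding and the next one and its Flt3+ libraries with the first.

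Bcl11b+ DN2a cells had higher levels of all 42 members than Bcl11b- DN2a cells, with a median of 0.54 against -0.04 over all genes. Of these, 10 rose, namely the cyclin Ccna2 and its kinase Cdk1, the spindle pole kinase Aurka, the checkpoint protein Bub1b, Ube2c, Birc5, the kinetochore protein Spc25, the kinesins Kif2c and Kif22, and Racgap1, with differences of 0.53 to 0.83. Of all genes tested, 2.79% were called and 1.15% were called higher. The groups did not overlap for 6 members that were higher, against 1.52% of all genes. By role, the medians lay between 0.48 for the kinesins and 0.63 for the central spindle.

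Spc25, a subunit of the Ndc80 complex that grips microtubules, had 24.8, 31.8 and 145.6 FPKM in Bcl11b+ DN2a, against 11.1, 17.3 and 98.1 FPKM in Bcl11b- DN2a (0.83, SE 0.17, limma adjusted p = 0.0243). Birc5 had 67.2, 60.5 and 249 FPKM in Bcl11b+ DN2a, against 34.9, 36.3 and 172.2 FPKM in Bcl11b- DN2a (0.73, SE 0.12, limma adjusted p = 0.00680). Both genes were higher in each Bcl11b+ library than in the Bcl11b- libraries of its own kit. Ect2 had 14.7, 23.7 and 26.2 FPKM in Bcl11b+ DN2a, against 8.63, 13 and 14.5 FPKM in Bcl11b- DN2a (0.78, SE 0.24, limma adjusted p = 0.149). Nusap1, which binds microtubules near chromosomes, had 28.5, 41.9 and 121.1 FPKM in Bcl11b+ DN2a, against 17.2, 24.4 and 75.5 FPKM in Bcl11b- DN2a (0.71, SE 0.20, limma adjusted p = 0.101). Neither passed the test, although the Ect2 groups did not overlap. Cenpa had 38.6, 38.3 and 105.03 FPKM in Bcl11b+ DN2a, against 28.4, 32.7 and 95.3 FPKM in Bcl11b- DN2a (0.26, SE 0.12), and Kif23, the kinesin of the cytokinetic midbody, had 16.1, 25.1 and 28.6 FPKM in Bcl11b+ DN2a, against 16.2, 20.9 and 25.3 FPKM in Bcl11b- DN2a (0.14, SE 0.19).

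Within the SMART-Seq pair 42 were higher in Bcl11b+ DN2a (median 0.46), within the NEBNext pair of 20719 to 20722 again 42 (median 0.60), and within the pair of 16673 to 16676 there were 41 (median 0.51), Kif23 being the exception at -0.01. Of the other mitosis genes, 4 rose (Ska1, Spc24, Gtse1 and Cep55) of 43 tested, with a median of 0.42, and 4 S-phase genes of 24 (Rrm2, Tyms, Pcna and Slbp, at 0.81, 0.56, 0.45 and 0.48), with a median of 0.35. None of the 17 regulators of mitotic genes, such as the E2F, Myb and NF-Y factors, was called by limma, with 3 at an unadjusted p under 0.05. Later T-cell markers summed to 98.5, 68.8 and 149.8 FPKM in Bcl11b+ DN2a, against 51.8, 14.9 and 25.7 FPKM in Bcl11b- DN2a, with 1 of 10 tested called higher. Myeloid markers summed to 40.6, 25.02 and 73.4 FPKM in Bcl11b+ DN2a, against 169.8 to 242.5 FPKM in Bcl11b- DN2a, with 4 of 12 called lower. Of 6 erythroid and mast cell markers 1 was called higher and 2 lower, and the part of any of these cells was not tested. The same-numbered libraries of both DN2a populations come from the same run, so they were also taken as pairs. Their residuals after population and kit correlated at 0.56, 0.82 and 0.51 across genes. Differently numbered DN2a libraries reached 0.36, and Flt3- ETP replicate 1 and Bcl11b- DN2a replicate 3, from different runs, reached 0.71. Flt3- ETP replicate 2 stood at -0.71 with that same DN2a library. In a population of 2 libraries the fit makes the residuals mirror each other, so such values are partly fixed by the fit. The correlations alone therefore do not show the pairing. With the replicate number as a block 36 members were called higher, where 3.01% of all genes were, and with the run of library numbers as a term 30 were, where 2.58% of all genes were. Without a block, the number of members called was 1 without replicate 1 of Bcl11b- DN2a and 2 or 3 without any 1 of the other DN2a libraries, and was 0 without the kit term or with NEBNext libraries only. An edgeR test on the reads recovered from the FPKM values called 17 members higher, the 10 among them.

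**Figure D3:**
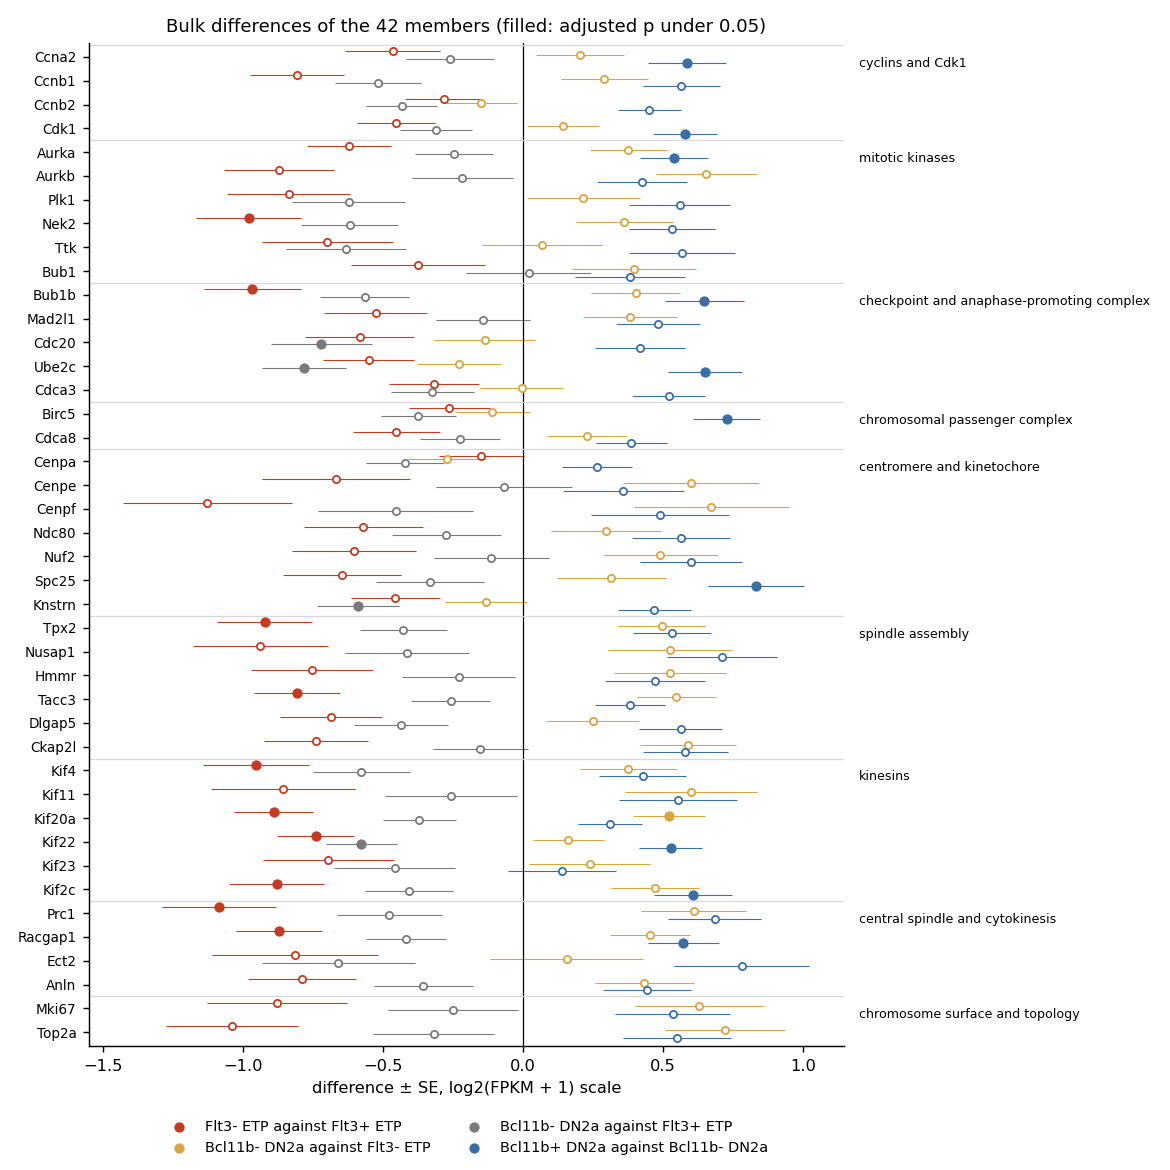
Difference of each member in the 4 bulk comparisons on the log2(FPKM + 1) scale, by role, with standard errors; filled points passed an adjusted p of 0.05. All 42 points are negative for Flt3- against Flt3+ ETP and all 42 are positive for Bcl11b+ against Bcl11b- DN2a.

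Single cells show how these transcripts are spread over a population. In the 10x libraries, cells were thinned to 4000 unique molecular identifiers (UMIs, counts of captured RNA molecules) so that depth would not decide how many members were seen, which left 4628 and 6978 cells of 5006 and 8867 deposited barcodes. Of these, 65.3% and 64% had a UMI of at most 2 members, and the rest formed a long tail that reached 27 and 28 members in 1 cell. A cell with at least 10 of the 42 was counted as mitotic, a label that covers G2 cells as well since both hold these transcripts. By that count 527 cells (11.4%, exact binomial 95% interval 10.49 to 12.3) and 729 cells (10.4%, 9.74 to 11.2) were mitotic, and the intervals cover counting error only. The limit cuts a continuous tail, with 6.66% and 7.22% of cells between 8 and 11 members. These shares leave out the 250 and 1456 cells under 4000 UMIs, among which mitotic cells were not counted. No doublet caller was run, and 57 barcodes occur in both libraries.

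Genes that the count did not use separate the same cells. The summed level of 44 other mitosis genes in cells of the no-marker stage (defined below) was 4558 and 4611 CPM (counts scaled to the summed UMIs) in mitotic cells, against 1420 and 1436 CPM in the other cells. Over all 4 stages and both libraries it lay between 4397 and 5731 CPM in mitotic cells, against 1369 to 1701 CPM in the others. The 24 S-phase genes differed less, and in no single direction. In the Flt3 stage they summed to 1233 and 1261 CPM in mitotic cells, against 1566 and 1519 CPM in the others, and in the no-marker stage to 1378 and 1484 CPM in mitotic cells, against 1592 and 1504 CPM in the others. In the Il2ra stage they summed to 1900 and 1906 CPM in mitotic cells, against 1765 and 1696 CPM in the others, and in the Bcl11b stage to 2074 and 2105 CPM in mitotic cells, against 2107 and 2024 CPM in the others. They were thus lower in mitotic cells of the first 2 stages and higher in those of the Il2ra stage, in both libraries. Mitotic cells carried more RNA, with a median UMI count 1.31 to 1.53 times that of the other cells of their stage and library. Among members the concentration in these cells differed widely, which describes the count's own genes: Ube2c had 86.2% and 81.1% of its UMIs in mitotic cells, at 467 and 384 CPM against 14.3 and 13.5 CPM in the others, while Mad2l1, the checkpoint protein that binds Cdc20, had 37.5% and 33.5%. The median member had 58.8% and 53.2%.

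Cells were placed by the transcripts of Flt3, Il2ra and Bcl11b after thinning: the Flt3 stage has Flt3 alone, the Il2ra stage has Il2ra without Bcl11b, the Bcl11b stage has both, and the no-marker stage has none of the 3, which in sparse counts includes cells whose marker was missed. The mitotic share was 11.1% (25 cells, exact 95% interval 7.32 to 15.96) and 13% of 377 cells (9.77 to 16.8) in the Flt3 stage. It was 10.2% of 2244 cells (8.98 to 11.5) and 10.4% of 3388 cells (9.41 to 11.5) in the no-marker stage. In the Il2ra stage it was 9.08% of 1266 cells (7.56 to 10.8) and 7.46% of 1717 cells (6.26 to 8.80), and in the Bcl11b stage 15.5% of 665 cells (12.8 to 18.5) and 11.8% of 1033 cells (9.91 to 13.9). In this draw the share was lowest in the Il2ra stage in both libraries. Its interval, which covers counting error among cells and not the spread of libraries, is apart from that of the Bcl11b stage in both. Which stage was lowest changed with the settings. With another random seed the first library had 10.7% in the Il2ra stage and 9.74% in the no-marker stage, and at a limit of 8 members it had 13.4% in the Il2ra stage and 13.3% in the Flt3 stage. Without thinning the no-marker stage was lowest in both, at 18.5% and 14.1%, with 23.3% and 18.7% in the Il2ra stage. The Bcl11b stage was above the Il2ra stage in both libraries under each of these settings. With the other seed the 2 stages were nearer, at 13.8% and 10.96% in the Bcl11b stage, against 10.7% and 8.12% in the Il2ra stage. Intervals were not computed for these settings. Cells with Bcl11b but no Il2ra UMI had the highest share, 24.1% of 228 cells (18.7 to 30.2) and 16.6% of 463 cells (13.3 to 20.3).

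**Figure D4:**
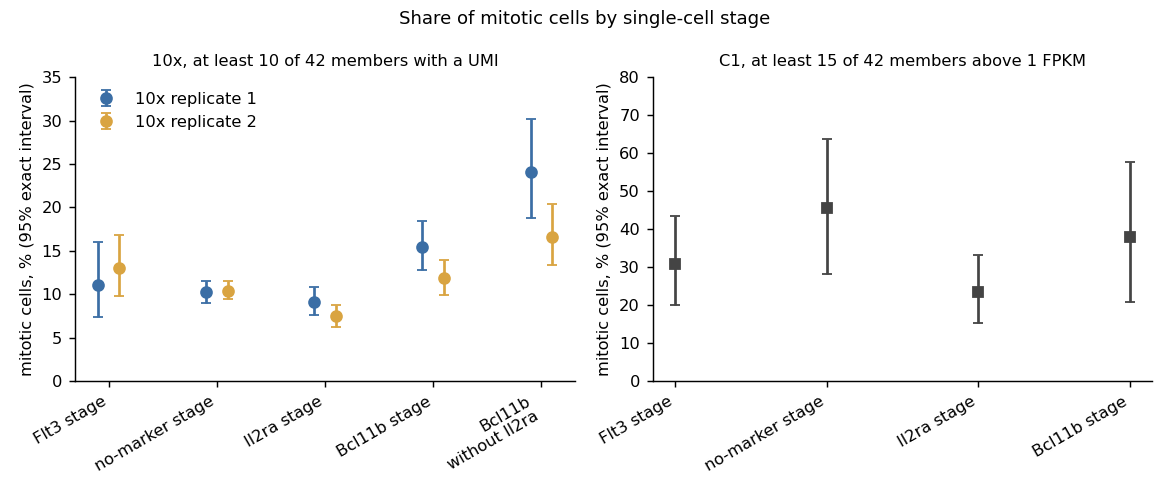
Share of mitotic cells by stage in the 10x libraries and in the C1 cells, in percent, with exact binomial 95% intervals for counting error. In the 10x libraries, as drawn at 4000 UMIs with the first random seed, the Il2ra stage is lowest, at 9.08% and 7.46%, and cells with Bcl11b without Il2ra are highest, at 24.1% and 16.6%.

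Averaged over the libraries, the difference in mitotic share was 5.38 percentage points for the Bcl11b stage minus the Il2ra stage (6.40 and 4.36 in each library), -3.79 points for the Il2ra stage minus the Flt3 stage (-2.03 and -5.54), and -1.74 points for the no-marker stage minus the Flt3 stage (-0.906 and -2.58). These shares were not tested, and the values of both libraries stand for their spread. Thinning with another random seed gave 2.98 points for the Bcl11b stage minus the Il2ra stage, and counting cells with at least 15 members as mitotic turned the no-marker difference to 0.167 points. Graded by UMIs, the share was higher with more Bcl11b in both libraries, at 9.88%, 15.7% and 19.1% for 0, 1 and at least 2 UMIs in the first and 9.67%, 10.9% and 15.3% in the second. Across Il2ra UMIs (0, 1, 2 to 3 and at least 4) it was 11.5%, 10.46%, 12.8% and 9.67% in the first library and 11.3%, 9.30%, 8.94% and 8.82% in the second, with no shared order.

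Summed over all members, the level in the Bcl11b stage was 2010 and 1614 CPM, against 1296 and 1185 CPM in the Il2ra stage. Within mitotic cells it was 6649 and 6703 CPM in the Bcl11b stage, against 5207 and 5075 CPM in the Il2ra stage. In the remaining cells it was 721 and 726 CPM in the Bcl11b stage, against 721 and 784 CPM in the Il2ra stage. The higher sum of the Bcl11b stage thus lay in its mitotic cells, while its other cells held about as much in the first library and less in the second. Since mitotic cells were defined by the same genes, these splits are a description.

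Tested member by member on UMI sums per library and stage (edgeR with library as a block, sums of 2124179 to 23774410 UMIs, 11417 genes tested), the Bcl11b stage stood above the Il2ra stage for all 42 members in both libraries, with a median log2 difference of 0.51 against -0.01 over all genes. It had 34 members called higher, where 17.2% of all genes were called and 8.49% were called higher. The stages in these sums, here and in the stage comparisons below, came from the first random seed. The tests were not repeated with stages of another seed, which brought the mitotic shares of these stages nearer. Ube2c had 133.8 and 84.3 CPM in the Bcl11b stage, against 61 and 37.5 CPM in the Il2ra stage (1.11, SE 0.08, edgeR adjusted p = 1.74e-17). Plk1, the kinase that drives mitotic entry and spindle formation, had 17.9 and 14.4 CPM in the Bcl11b stage, against 9.5 and 6.75 CPM in the Il2ra stage (0.96, SE 0.15, edgeR adjusted p = 7.75e-07). For both genes, each Bcl11b-stage value lay above both Il2ra-stage values. Nusap1 had 87.9 and 60.5 CPM in the Bcl11b stage, against 42.6 and 37.5 CPM in the Il2ra stage (0.84, SE 0.08, edgeR adjusted p = 2.56e-12). Ccnb1, the main cyclin of mitotic entry, had 31.4 and 27.8 CPM in the Bcl11b stage, against 18.4 and 14.7 CPM in the Il2ra stage (0.81, SE 0.11, edgeR adjusted p = 2.94e-08). All 6 spindle assembly genes and all 4 central spindle genes were called, as were 3 of 6 kinesins. Other mitosis genes gave 23 higher of 44, among them the condensin subunits Smc2 and Smc4, and S-phase genes 13 of 24, with a median of 0.19. The Bcl11b stage also held more later T-cell transcripts, with 6 of 8 tested markers called higher and a sum of 892 and 724 CPM, against 66.4 and 116.8 CPM in the Il2ra stage; their part in the result was not tested. With DESeq2 22 members were called, and without the library block 15.

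The Il2ra stage stood below the Flt3 stage for 38 of 42 members, 27 of them in both libraries, with a median of -0.36 against 0.00 over all genes. It had 18 members called lower, where 17.2% of all genes were called and 9.81% were called lower. Cdc20 had 25.3 and 23.8 CPM in the Il2ra stage, against 37.7 and 51.5 CPM in the Flt3 stage (-0.96, SE 0.13, edgeR adjusted p = 3.21e-08). Cenpa had 75 and 76.5 CPM in the Il2ra stage, against 116.3 and 128.6 CPM in the Flt3 stage (-0.77, SE 0.07, edgeR adjusted p = 1.53e-12). Neither gene overlapped between the stages. Kif23 had 22.9 and 20.7 CPM in the Il2ra stage, against 39.1 and 31.2 CPM in the Flt3 stage (-0.76, SE 0.13, edgeR adjusted p = 1.21e-05), and Ccnb1 had 18.4 and 14.7 CPM in the Il2ra stage, against 21.2 and 29.7 CPM in the Flt3 stage (-0.74, SE 0.16, edgeR adjusted p = 3.97e-04). The drop was uneven across members: Top2a, Cdk1 and Mki67 were not called, at -0.05, -0.02 and -0.19. Of the 24 S-phase genes, 5 were called higher in the Il2ra stage and none lower, among them Uhrf1 and Rrm2 at 0.39 each. Of 44 other mitosis genes 5 were called lower and 1 higher, with a median of -0.12 and 11 lower in both libraries, a share of calls near the background. Of 8 later T-cell markers 4 were called higher and 1 lower, and of 10 myeloid markers 2 higher and 3 lower; their part was not tested. With the thinned counts summed in place of all UMIs, 10 members were called, and 6 without the library block.

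The no-marker stage differed little from the Flt3 stage: 32 members were negative with a median of -0.13, and 1 fell, where 2.29% of all genes were called and 1.18% were called lower. That member was Cdc20, with 30.2 and 33.7 CPM in the no-marker stage, against 37.7 and 51.5 CPM in the Flt3 stage (-0.52, SE 0.12, edgeR adjusted p = 0.00375). The groups did not overlap. Dlgap5, a spindle protein, had 8.91 and 10.1 CPM in the no-marker stage, against 13.2 and 13.5 CPM in the Flt3 stage (-0.50, SE 0.20, edgeR adjusted p = 0.269). Kif23 had 28.5 and 26.7 CPM in the no-marker stage, against 39.1 and 31.2 CPM in the Flt3 stage (-0.36, SE 0.12, edgeR adjusted p = 0.132), and Ccna2 had 31.2 and 29.1 CPM in the no-marker stage, against 36.7 and 38.3 CPM in the Flt3 stage (-0.35, SE 0.12, edgeR adjusted p = 0.148). Myeloid transcripts summed to 472 and 416 CPM in the no-marker stage, against 245 and 275 CPM in the Flt3 stage, with 6 of 10 tested markers called higher; their part was not tested. Of 44 other mitosis genes none was called by edgeR, with 3 at an unadjusted p under 0.05. Cdc20 was not called with DESeq2 or without the library block, and 28 members were called lower when stages were set on the deposited counts without thinning. In that setting a cell with few UMIs is more often left without a marker, and the part of cell depth in the count was not tested.

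Sorted populations and single-cell stages, which share no samples, can be set beside each other member by member. The counts of shared signs mostly follow from the counts already given, since nearly all members have 1 sign in each assay. For Bcl11b+ against Bcl11b- DN2a beside the Bcl11b stage against the Il2ra stage, all 42 members had the same sign. The 10 called in bulk were all called in the 10x sums (100% of the bulk calls and 29.4% of the 10x calls), where 34 of the 42 were called. Most of that overlap therefore follows from the 10x count. For Bcl11b- DN2a against Flt3+ ETP beside the Il2ra stage against the Flt3 stage, 37 members had the same sign. The 4 called in bulk were all called in the 10x sums (100% and 22.2%), where 18 of the 42 were called. How often bulk calls were shared over all genes was not counted. For Flt3- against Flt3+ ETP beside the no-marker stage against the Flt3 stage, 32 had the same sign and none was called in both; the no-marker stage is a loose counterpart of Flt3- ETP. Across the 42 members, which share their libraries within each assay, the Spearman rho of the differences was 0.363, 0.252 and -0.018 in these 3 pairs of comparisons, so the order of the members was only weakly shared. Members with a TTTGAA in the promoter window and those without had medians of -0.74 and -0.64 for Flt3- against Flt3+ ETP, 0.55 and 0.51 for Bcl11b+ against Bcl11b- DN2a, 0.52 and 0.49 for the Bcl11b stage against the Il2ra stage, and -0.42 and -0.32 for Bcl11b- DN2a against Flt3+ ETP (27 and 10 members). In the other comparisons the members without the motif had the median farther from 0, at 0.32 with it and 0.39 without for Bcl11b- DN2a against Flt3- ETP, -0.26 and -0.47 for the Il2ra stage against the Flt3 stage, and -0.07 and -0.17 for the no-marker stage against the Flt3 stage.

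**Figure D5:**
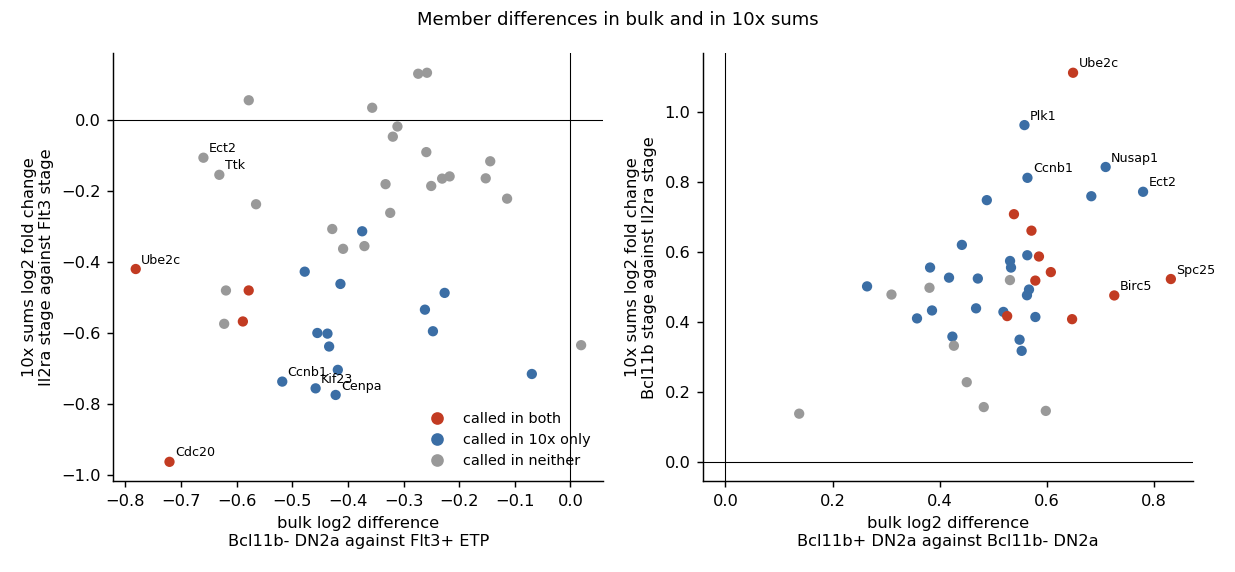
Difference of each member between bulk populations (log2(FPKM + 1) scale) beside its difference between 10x stages (log2 CPM scale). In the panel of Bcl11b+ against Bcl11b- DN2a all 42 members lie in the upper right quadrant, and in the panel of Bcl11b- DN2a against Flt3+ ETP 37 have the same sign on both axes.

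In the C1 data, where whole transcripts are read from each cell, 5 cells with under 1000 genes above 1 FPKM were left out, and a cell with at least 15 of the 42 members above 1 FPKM was counted as mitotic. That held for 69 of the remaining cells (31.1%, exact 95% interval 25.1 to 37.6), a share that cannot be set beside the 10x share because detection and limit differ. By stage the share was 30.8% of 65 cells in the Flt3 stage (19.9 to 43.4), 45.5% of 33 cells in the no-marker stage (28.1 to 63.6), 23.4% of 94 cells in the Il2ra stage (15.3 to 33.3) and 37.9% of 29 cells in the Bcl11b stage (20.7 to 57.7), and 1 further cell had Bcl11b without Il2ra. The Il2ra stage was lowest among these 4 and the Bcl11b stage stood 14.5 points above it, with an interval of -5.34 to 35.9 points built from both exact intervals, which includes 0. The Il2ra stage minus the Flt3 stage was -7.37 points (-22.4 to 7.30), and the no-marker stage minus the Flt3 stage 14.7 points (-6.80 to 35.9). By run of the library numbers in the cells' labels the share was 22.8% of 92 cells, 57.1% of 35 cells and 29.5% of 95 cells. Within these groups the no-marker stage minus the Flt3 stage was -6.57 points in the first and above 0 in the others, and the Il2ra stage minus the Flt3 stage was 2.78 points in the last.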

How the data were processed

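Bulk values are FPKM per gene as deposited by the authors, made with HOMER on exons of condensed genes per the file headers, after STAR 2.4.0 alignment and RSEM 1.2.25 per the submitters' processing notes, on mm10. The C1 table holds FPKM values deposited by the authors, and the 10x tables hold UMI counts per gene and cell, deposited by the authors after Cell Ranger 2.0 per the submitters' processing notes. How strand was used is not given in the sources used here. The 4 SMART-Seq columns of the bulk table name a population and no library number; each was taken as the library of that population whose number is in no other column.

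Bulk values were tested with limma 3.58.1 (R 4.3.3, trend) on log2(FPKM + 1) in all 12 libraries with population and kit as terms and no replicate block, for 12112 genes above 1 FPKM in at least 2 libraries, and a fold change on this scale understates the change of low genes. All FPKM values below 200 reads on gene models under 3 kb came out as whole reads within 0.1 read (100%) when multiplied by model length, which gave 21206645 to 38537039 reads per library, of which 82770 to 297021 lay on the members; edgeR 4.0.16 on these reads was added after seeing the data, and called 35, 694, 850 and 421 genes in the 4 comparisons in the order of the report. Between the DN2a populations the replicate numbers were taken to pair the libraries, since each of the 3 same-numbered pairs comes from 1 run of library numbers and had deviations correlated over 0.1 (0.51 to 0.82). Replicates 1 and 3 of opposite DN2a populations also passed that limit (0.359 and 0.316), so the correlations alone do not show the pairing. The blocked count stands beside the result. In 10x, cells with under 1000 genes or over 10% mitochondrial counts were removed (4878 and 8434 kept), and cells under 4000 UMIs were left out of the thinned data (250 and 1456). Total UMIs were 43734920 and 55522900. Counts summed per library and stage were tested with edgeR's quasi-likelihood test with library as a block (DESeq2 1.42.0 as an alternative), and p-values were adjusted by Benjamini-Hochberg over all genes tested. Intervals are exact binomial at 95% and cover counting error only. Tests were run on simulated data first. Python 3.11.15 with scipy 1.17.1 made the single-cell tables.

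The members and the gene lists were chosen with earlier results of these data known. Members named with full values are the 4 with the largest and the 2 with the smallest difference in each bulk comparison, the 4 largest in each 10x comparison, and the most highly expressed member of each role; promoters were printed for the 5 most highly expressed members with a motif and 2 without.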

Additional observations from a re-analysis of the deposited data

How the results depend on the processing

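The number of members called changed more than the sign of their differences. The alternatives reuse the same libraries, which all members share, so a kept sign is not further evidence. In bulk, all 42 members stayed negative for Flt3- against Flt3+ ETP under all 13 alternatives, 40 to 42 for Bcl11b- DN2a against Flt3+ ETP, and at most 1 for Bcl11b+ against Bcl11b- DN2a, while 6 to 15 were negative for Bcl11b- DN2a against Flt3- ETP. In 10x, none of the 42 was negative for the Bcl11b stage against the Il2ra stage under the 7 alternatives, while 32 to 40 were negative for the Il2ra stage against the Flt3 stage and 23 to 42 for the no-marker stage against the Flt3 stage. None of these 7 alternatives used another random seed. With groups of 2 or 3 libraries, each count of calls depends on the estimate of the spread, and other causes were not tested. Some counts, below and in the results above, stand without the share of all genes called under the same setting. Such a count shows only how far the calls moved with the setting. It does not set the members apart from other genes.

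For Flt3- against Flt3+ ETP (10 called), a pseudocount of 0.1 gave 4, no filter 2, quantile normalization 2, no kit term 0, NEBNext libraries only 0, the compared populations alone 31, and edgeR on recovered reads 1. For Bcl11b- DN2a against Flt3- ETP (1 called), quantile normalization and no kit term gave 0 and recovered reads 2. For Bcl11b- DN2a against Flt3+ ETP (4 called), quantile normalization gave 7, no kit term and NEBNext only 0, the compared populations alone 2, and recovered reads 2. For Bcl11b+ against Bcl11b- DN2a (10 called), no filter gave 3, no kit term and NEBNext only 0, the compared populations alone 2, and recovered reads 17. Leaving out 1 library at a time gave 0 to 20, 0 to 11, 1 to 3 and 1 to 3 calls in these 4 comparisons.

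Outside the DN2a comparison the replicate numbers give at most 2 pairs and are not known to pair the libraries. Over all 21 same-numbered pairs the deviations correlated at -0.02 to 0.82, 16 of them over 0.1. In populations of 2 libraries the residuals mirror each other by the fit, so these values are partly fixed by it. With the replicate number as a block the 4 comparisons gave 36, 18, 9 and 36 calls, where 13.7%, 29.4%, 10.8% and 7.02% of all genes were called in either direction, and with the run of library numbers as the replicate block 34, 5, 20 and 30.

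In the 10x sums, the no-marker stage against the Flt3 stage (1 called) gave 0 with DESeq2, 0 with no replicate block and 28 with stages set on the deposited counts. The Il2ra stage against the Flt3 stage (18 called) gave 10 on thinned counts, 30 with stages on the deposited counts and 6 with no replicate block. The Bcl11b stage against the Il2ra stage (34 called) gave 22 with DESeq2 and 15 with no replicate block. Leaving out a 10x library leaves no degrees of freedom for the test.

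For the difference in mitotic share, the no-marker stage minus the Flt3 stage was 0.167 points at a limit of 15 members and -12.1 points without thinning, and -2.58 to -0.906 by library. The Il2ra stage minus the Flt3 stage was -7.40 points without thinning, and -5.54 to -2.03 by library in the main setting. In the first library these stages were close under other settings. They had 10.7% and 10.8% with another seed, 13.4% and 13.3% at a limit of 8 members, and 2.84% and 3.11% at 15 members. In the second library the Il2ra stage was the lower under each of these settings. The Bcl11b stage minus the Il2ra stage was 3.63 points at a limit of 8 members, 3.13 without thinning and 2.98 with another seed, and 4.36 to 6.40 by library. In the C1 cells, the no-marker stage minus the Flt3 stage was -6.57 points in the first group of library numbers and 46.2 points in the second. The Il2ra stage minus the Flt3 stage was 2.78 points in the last group. The 10x depth of 4000 UMIs leaves many cells without a UMI of a marker they express, so stages overlap, and the C1 stages of 29 to 94 cells give wide intervals.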
